A study of Mus musculus with 6 samples.

Results

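The 5p strands of the miR-15, miR-16 and miR-195 seed family, called guide strands here, were examined in the livers of NC and MAFLD mice. The 6 members (mmu-miR-15a-5p, mmu-miR-15b-5p, mmu-miR-16-5p, mmu-miR-195a-5p, mmu-miR-497a-5p and mmu-miR-322-5p, where mmu stands for mouse) were chosen by name, and all 6 were found among the 1546 mature miRNAs of the deposited data. Male C57BL/6 mice entered the experiment at 8 weeks of age and ate either a normal diet (NC) or a high-fat diet (MAFLD) for 16 weeks. Small RNA of 3 livers per diet was sequenced, with 1 library per liver. No gene was modified and no drug was given in either group. The model is diet-induced, and each library holds RNA of whole liver tissue, so fewer cells of a type and less RNA per cell cannot be told apart. The values are CPM, the reads of a miRNA scaled to a common total of reads on all listed miRNAs of a library.

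A miRNA is cut from a hairpin RNA and is loaded into an Argonaute protein, where bases 2 to 8, the seed, pair with sites in target mRNAs and lower their translation and stability. Members of a seed family share these bases and therefore many targets. The miR-15/16 family is known for holding back the cell cycle. Its targets include cyclins D1, D3 and E1, the kinases Cdk6 and Chek1 and the survival factor Bcl2. Loss of the hairpins inside Dleu2 is a frequent event in chronic lymphocytic leukaemia. In the heart, members of the family are known to take part in the exit of muscle cells from the cell cycle after birth.

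The mature sequences show what defines the family, with the seed in capitals and each strand written from its 5′ end (RefSeq, GRCm38.p6).
mmu-miR-16-5p: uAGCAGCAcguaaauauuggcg
mmu-miR-195a-5p: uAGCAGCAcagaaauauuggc
mmu-miR-15a-5p: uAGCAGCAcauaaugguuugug
mmu-miR-15b-5p: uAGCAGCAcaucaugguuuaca
mmu-miR-497a-5p: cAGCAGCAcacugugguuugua
mmu-miR-322-5p: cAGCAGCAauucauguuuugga
mmu-miR-503-5p, no member: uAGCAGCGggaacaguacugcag

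All 6 members carried the same seed and were 21 or 22 nt long. MiR-503-5p, which is made from the hairpin next to miR-322, is shown because it stops short of this seed by its last base (A8G, counted from the 5′ end of miR-16-5p). Outside the seed the members were alike to different degrees. MiR-195a-5p differed from miR-16-5p at 2 of the 21 positions that both have, by G10A and U11G. MiR-15a-5p and miR-15b-5p differed from each other at 4 of 22 positions, and miR-497a-5p was nearer to miR-15a-5p (5 positions) than to miR-195a-5p (9 of 21 positions), with which it is transcribed. How many mismatches the authors' alignment allowed is not given in the sources used here, so a part of the reads named miR-195a-5p could stem from the more abundant miR-16-5p, and this was not tested. RefSeq held 10 mature mouse miRNAs with this seed. Besides the members, miR-6342 was the only listed miRNA with it among the 1312 listed names that have a RefSeq sequence, and it was read 4 times in all 6 libraries together.

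The members come from 4 loci of GRCm38. Mir15a (chromosome 14, 61632027 to 61632110) and Mir16-1 (61631880 to 61631972) lie 54 bases apart on the minus strand inside the long non-coding gene Dleu2, where Mir15a is intronic and Mir16-1 overlaps an annotated exon. Mir15b (chromosome 3, 69009772 to 69009835) and Mir16-2 (69009902 to 69009996) lie 66 bases apart on the plus strand in an intron of Smc4, which encodes a condensin subunit. MiR-16-5p is cut from Mir16-1 as well as from Mir16-2 with the same sequence, so its reads cannot be divided between these loci. Mir497 (chromosome 11, 70234717 to 70234800) and Mir195a (70235042 to 70235135) lie 241 bases apart on the plus strand, and Mir497b is annotated on the opposite strand over Mir497. Mir322 (chromosome X, 53054255 to 53054349, minus strand) heads a cluster with Mir503, Mir351 and Mir542.

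The libraries held between 1336935 and 2549598 reads on miRNAs in the NC livers and from 1534569 to 4685712 in the MAFLD livers. The smallest level that could be shown, taken as 3 reads, lay between 0.640 and 2.24 CPM. MiR-148a-3p alone took 71.4%, 63.3% and 48.5% of the reads in NC livers 1, 2 and 3 and between 46.8% and 56.7% in the MAFLD livers, and all other miRNAs share the rest. NC liver 3 stood apart from the other NC livers in this share, and NC livers 1 and 2 carried neuronal miRNAs (miR-9, miR-124 and miR-128) at 463 and 744 CPM in sum against 44.2 to 63.9 CPM in the other 4 livers. The hepatocyte miRNAs miR-122, miR-192 and miR-194 summed to between 102722 and 176512 CPM in every liver. The log2 fold changes below are on the log2(CPM + 1) scale, MAFLD over NC, and were fitted with limma over the 501 miRNAs whose mean reached 1 CPM, with Benjamini-Hochberg adjustment over all 501. The median log2 fold change of these 501 was 0.43, and it was 0.044 after median-ratio scaling, in which a library is divided by the median of its ratios to the geometric means. Each member is therefore also read against this shift.

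All 6 members passed the filter of 1 CPM, and all 6 had a higher mean in MAFLD livers, with log2 fold changes from 0.67 to 1.35 and a median of 1.03. None passed an adjusted p of 0.05, which 0.2% of the 501 miRNAs did. At an unadjusted p under 0.05, 3 of the 6 (miR-16-5p, miR-15a-5p and miR-15b-5p) were higher in MAFLD livers and 0 were lower, where 18% of all miRNAs passed this p, 13.4% higher and 4.59% lower. Every MAFLD liver was above every NC liver for 4 of the 6, and for 15.2% of all miRNAs, and the reverse held for 0 of the 6 and for 4.19% of all. With median-ratio scaling this was so for 3 of the 6 and for 11.6% of all. A log2 fold change above 0 was itself common, with 71.3% of the 501. The hairpins of a cluster are transcribed together, and miR-16-5p belongs to 2 of the loci, so the 6 members are not independent measurements.

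**Figure D1:**
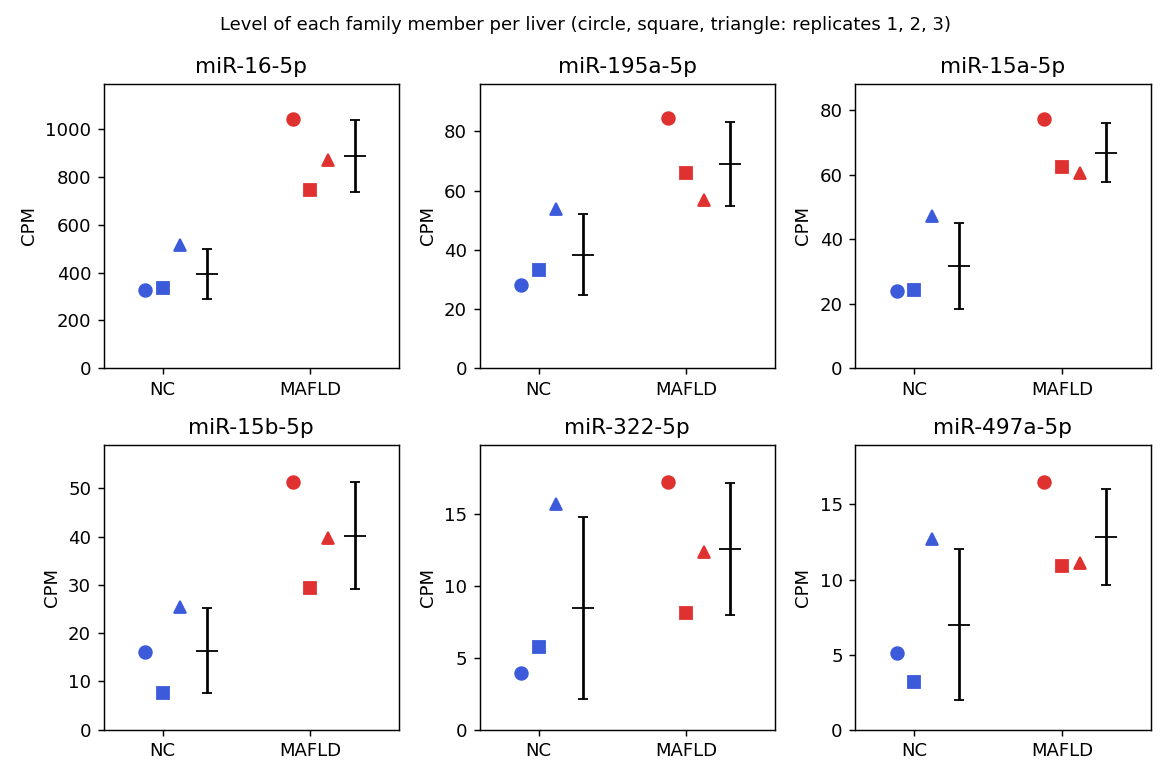
CPM of the 6 members in each liver, 1 panel per member, with a linear axis from 0. Blue points are the 3 NC livers, red points the 3 MAFLD livers, and the black bars give the mean ± SD (n = 3). NC liver 3 is the highest NC liver in every panel and MAFLD liver 1 the highest of all, and the groups are apart for miR-16-5p, miR-195a-5p, miR-15a-5p and miR-15b-5p but overlap for miR-322-5p and miR-497a-5p.

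MiR-16-5p was the most abundant member. Its level was 329, 336 and 515 CPM under the normal diet, against 1044, 744 and 872 CPM under the high-fat diet. The lowest MAFLD liver stood above the highest NC liver, NC liver 3. The means were 393 ± 106 CPM for NC and 887 ± 151 CPM for MAFLD (SD, n = 3 each). By limma the log2 fold change came to 1.19 (standard error 0.34, 95% interval 0.46 to 1.91, unadjusted p = 0.00324, adjusted p = 0.152), and 8 miRNAs had a smaller p. The two-sided exact permutation p was 0.1, which is the lowest value possible with groups of 3. The reads behind these values were 838, 528 and 689 in NC livers and 2783, 3486 and 1338 in MAFLD livers, so counting error was small: the 95% Wilson interval of NC liver 3, 478 to 555 CPM, did not reach that of MAFLD liver 2, 720 to 769 CPM. Such intervals cover counting error only. Under median-ratio scaling it had a log2 fold change of 0.72 (adjusted p = 0.0931). Count models on the reads behind the CPM gave 0.71 (DESeq2, adjusted p = 0.0130) and 0.74 (edgeR, adjusted p = 0.0646). At an adjusted p under 0.05, DESeq2 called 32 of all 501 miRNAs, 9 of them higher, and edgeR called 1.

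MiR-15a-5p, the partner of miR-16 in Dleu2, had 23.9, 24.2 and 47.1 CPM under the normal diet and 77.3, 62.5 and 60.6 CPM under the high-fat diet. The groups were apart, with NC liver 3 nearest to the MAFLD range. The 95% Wilson interval of NC liver 3 (36.8 to 60.3 CPM) met those of MAFLD liver 2 (55.8 to 70.1 CPM) and MAFLD liver 3 (49.5 to 74.2 CPM). Limma gave miR-15a-5p a log2 fold change of 1.11 (standard error 0.43, unadjusted p = 0.0213, adjusted p = 0.212). MiR-15b-5p, which is made with miR-16 from the Smc4 intron, had 16.1, 7.65 and 25.4 CPM under the normal diet and 51.4, 29.2 and 39.8 CPM under the high-fat diet. Of the 6 members it had the largest log2 fold change by limma, 1.35 (standard error 0.50, unadjusted p = 0.0165, adjusted p = 0.208). The groups did not overlap, although the Wilson interval of NC liver 3 (18.2 to 35.5 CPM) met that of MAFLD liver 2 (24.7 to 34.6 CPM). NC liver 2 held only 12 reads of it (95% Wilson interval 4.37 to 13.4 CPM), and without that liver the log2 fold change was 0.92.

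MiR-195a-5p, known for a part in the cell cycle exit of heart muscle cells, had 28.2, 33.1 and 53.9 CPM under the normal diet and 84.4, 65.9 and 56.7 CPM under the high-fat diet. The groups did not overlap, but NC liver 3 and MAFLD liver 3 were close, and with median-ratio scaling NC liver 1, at 44.8, was above MAFLD liver 3, at 43.5. Its difference by limma was 0.86 on the log2 scale (standard error 0.43, 95% interval −0.046 to 1.77, unadjusted p = 0.0612, adjusted p = 0.298). Its neighbour miR-497a-5p was scarce, with 5.10, 3.19 and 12.7 CPM under the normal diet and 16.5, 10.9 and 11.1 CPM under the high-fat diet, and the groups overlapped through NC liver 3. Its fitted log2 difference was 0.95 (standard error 0.54, limma adjusted p = 0.351), with 5 to 51 reads per library. MiR-322-5p, the mouse counterpart of human miR-424, had 3.92, 5.73 and 15.7 CPM under the normal diet and 17.3, 8.11 and 12.4 CPM under the high-fat diet. NC liver 3 was above 2 of the 3 MAFLD livers. Its fitted difference was 0.67 on the log2 scale (standard error 0.56, 95% interval −0.52 to 1.86, limma adjusted p = 0.516), with 9 to 46 reads per library. The NC livers themselves differed by more than counting error, since the Wilson interval of NC liver 1 (2.13 to 7.22 CPM) did not meet that of NC liver 3 (10.3 to 24.0 CPM).

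**Figure D2:**
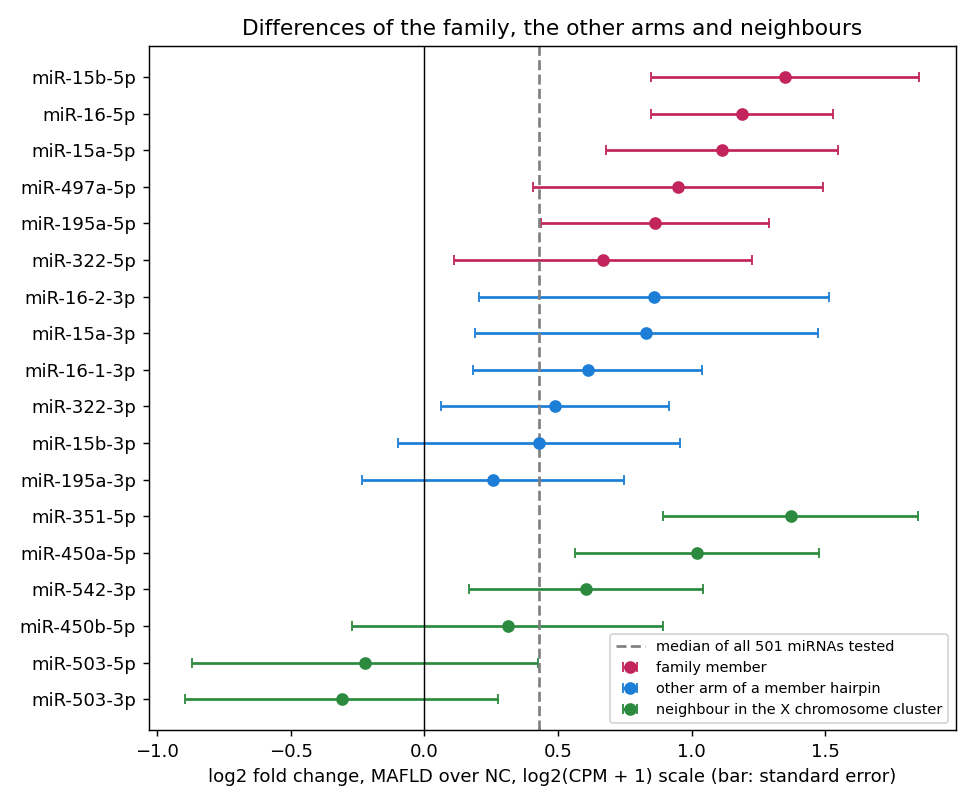
Log2 fold change (MAFLD over NC, log2(CPM + 1) scale) of the 6 family members, of the 6 other arms and of the 6 cluster neighbours that passed the filter, with bars of 1 standard error. The dashed line marks the median of all 501 miRNAs, 0.43, and all 6 members lie to its right, from miR-322-5p at 0.67 to miR-15b-5p at 1.35.

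NC liver 3 had the highest level of each member among the NC livers, and it is also the NC liver with the lowest share of miR-148a-3p. Without it, miR-16-5p (log2 fold change 1.40, adjusted p = 0.00334), miR-15a-5p (1.43, 0.0123), miR-15b-5p (1.72, 0.0174) and miR-195a-5p (1.13, 0.0358) passed the adjusted p of limma. This setting also called 19% of all 501 miRNAs higher, and the median of all rose to 0.67, so 4 of 6 members is read against that background. Without MAFLD liver 1, the liver with the highest level of each member, miR-16-5p had a log2 fold change of 1.06. It was then the only member with an unadjusted p under 0.05 (0.0246 from limma, adjusted p = 0.497). In this setting 4.19% of all 501 miRNAs were higher at that p. In CPM computed without miR-148a-3p, all members had a log2 fold change above 0. The median of the 6 was then 0.74, against 1.03 in the deposited CPM. That of all miRNAs was 0.16, against 0.43. The part that the share of miR-148a-3p has in these differences was not tested.

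Summed over the 6 members, the family reached 406, 410.4 and 670.2 CPM in the NC livers and 1291, 921 and 1052 CPM in the MAFLD livers. This is between 0.0406% and 0.129% of all miRNA reads, and the mean in MAFLD livers was 2.20 times that in NC livers. With median-ratio scaling the sums were 644, 530.4 and 536 in NC livers and 1003, 958 and 808 in MAFLD livers, 1.62 times as high. In CPM without miR-148a-3p they were 1418, 1119 and 1302 against 2425, 2128 and 2176, 1.75 times as high. The groups were apart under each of these 3 scalings, and NC liver 3 was the highest NC liver in the deposited CPM but not in the other 2. No test was made on this sum, since the members were chosen as a group.

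**Figure D3:**
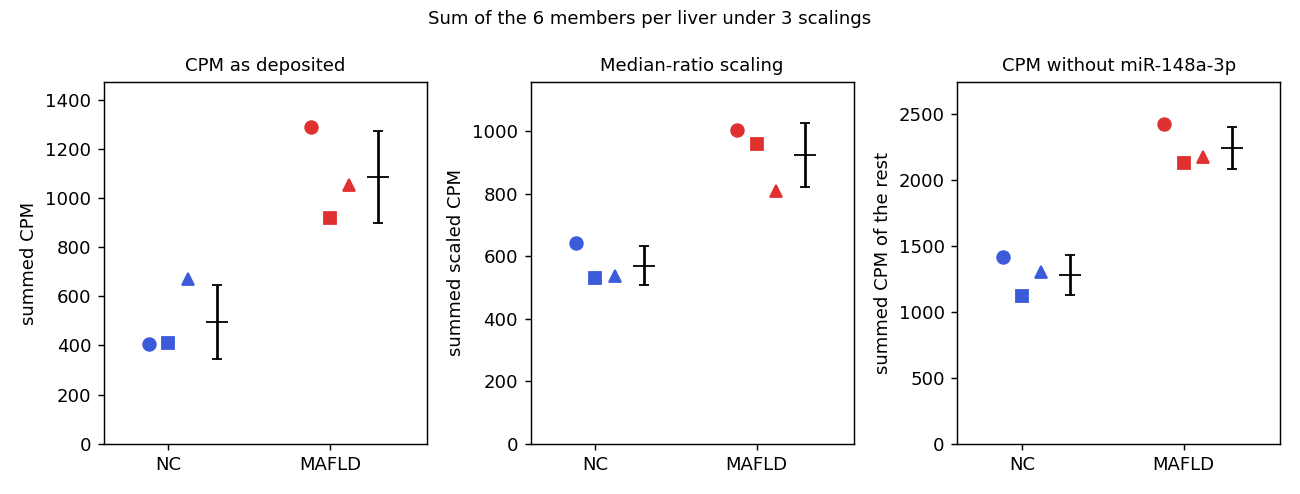
Sum of the 6 members in each liver in the deposited CPM, after median-ratio scaling, and in CPM computed without miR-148a-3p, with linear axes from 0. Blue points are NC livers, red points MAFLD livers, with symbols for the replicates as in the plot of single members, and black bars give the mean ± SD (n = 3). The lowest MAFLD liver is above the highest NC liver in all 3 panels.

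The shares of the members within the family overlapped between the diets for all 6 members. MiR-16-5p took 81.0%, 82.0% and 76.9% of the family's reads in NC livers and 80.9%, 80.8% and 82.8% in MAFLD livers. MiR-195a-5p took 5.39% to 8.07%, miR-15a-5p 5.76% to 7.03%, miR-15b-5p 1.86% to 3.98%, miR-322-5p 0.881% to 2.34% and miR-497a-5p 0.776% to 1.90%. Since all members are 21 or 22 nt long and each read is a whole miRNA, no correction for length was needed to order them, but ligation of adapters differs between sequences and was not measured. MiR-16-5p was the highest in 6 of 6 libraries, in position 39 to 53 among all miRNAs. MiR-195a-5p was above miR-15a-5p in 5 of 6 libraries, with overlapping Wilson intervals in all 6, so their order is not settled in any single library. MiR-15a-5p was above miR-15b-5p in 6 of 6, and miR-15b-5p above miR-322-5p in 6 of 6. For each of these pairs the intervals overlapped in 2 libraries. MiR-322-5p was above miR-497a-5p in 4 of 6, with overlapping intervals in all 6.

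Ratios within a library do not depend on the scaling, and 4 of them were compared. For each 100 reads of miR-16-5p there were between 6.95 and 9.14 of miR-15a-5p, between 2.27 and 4.93 of miR-15b-5p and between 6.50 and 10.4 of miR-195a-5p. MiR-195a-5p relative to miR-16-5p was lower by 0.31 on the log2 scale in MAFLD livers (−3.69 ± 0.23 against −3.38 ± 0.14, SD, n = 3), and the groups overlapped (two-sided exact permutation test, p = 0.2, Benjamini-Hochberg adjusted p = 0.8 over the 4 ratios). The other ratios had an exact permutation p between 0.7 and 0.9. A change in the balance between the members was not detected with 3 livers per group, where p cannot go below 0.1.

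The other arms of the hairpins differ in sequence where the guide strands do not, so that Mir16-1 and Mir16-2 can be told apart by them. MiR-16-1-3p, the passenger strand of Mir16-1, had 29.4, 28.7 and 51.6 CPM under the normal diet and 65.3, 52.3 and 46.9 CPM under the high-fat diet. MiR-16-2-3p, that of Mir16-2, was read 25 times in all libraries and 0 times in NC liver 2, where 3 reads would be 1.91 CPM. Reads of miR-16-1-3p made up between 92.3% and 100% of both. The strands are as follows, in lower case since their seeds differ from that of the family.
mmu-miR-16-1-3p: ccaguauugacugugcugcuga
mmu-miR-16-2-3p: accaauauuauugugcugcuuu
mmu-miR-322-3p: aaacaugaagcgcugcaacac

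The 6 other arms that passed the filter had log2 fold changes from 0.26 to 0.86 with a median of 0.55, where the median of all miRNAs was 0.43. The 2 largest, of miR-16-2-3p and miR-15a-3p, rest on 25 and 24 reads in all. No other arm had an unadjusted p under 0.05 by limma, where 13.4% of all miRNAs were higher and 4.59% lower at this p. The groups overlapped for each of these arms. Among all miRNAs, every MAFLD liver was above every NC liver for 15.2% and below for 4.19%. MiR-16-5p was read 11.2, 11.7 and 9.99 times as often as miR-16-1-3p in NC livers and 15.99, 14.2 and 18.6 times as often in MAFLD livers. The groups did not overlap in this ratio, with a difference of 0.56 on the log2 scale. It was examined after the values were seen, as 1 of 4 arm ratios, and had an exact permutation p of 0.1, the smallest possible, and an adjusted p of 0.4. The ratio also moves with the amount of miR-16-5p from Mir16-2, which cannot be told apart here.

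Over all libraries together the 5p arm was the more abundant one in the hairpins of the members, with 1 exception. The 5p arm took 96.9% of the reads of Mir15a, 87.7% of those of Mir195a, 79.5% of those of Mir15b and 99.3% of those of Mir497, where miR-497a-3p was read once. In Mir322 the 5p arm, the family member, took only 21.7% of the reads, between 12.5% in NC liver 1 and 30.4% in NC liver 3. MiR-322-5p is thus called a guide strand by its seed, but it was the less abundant arm in these livers. MiR-322-3p had 27.5, 24.9 and 35.9 CPM under the normal diet and 51.8, 34.4 and 39.1 CPM under the high-fat diet, and NC liver 3 was above MAFLD liver 2. The share of the 5p arm of Mir15b varied from 57.1% in NC liver 2, with a 95% Wilson interval of 36.5% to 75.5%, to 89.5% in NC liver 3 and MAFLD liver 1.

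**Figure D4:**
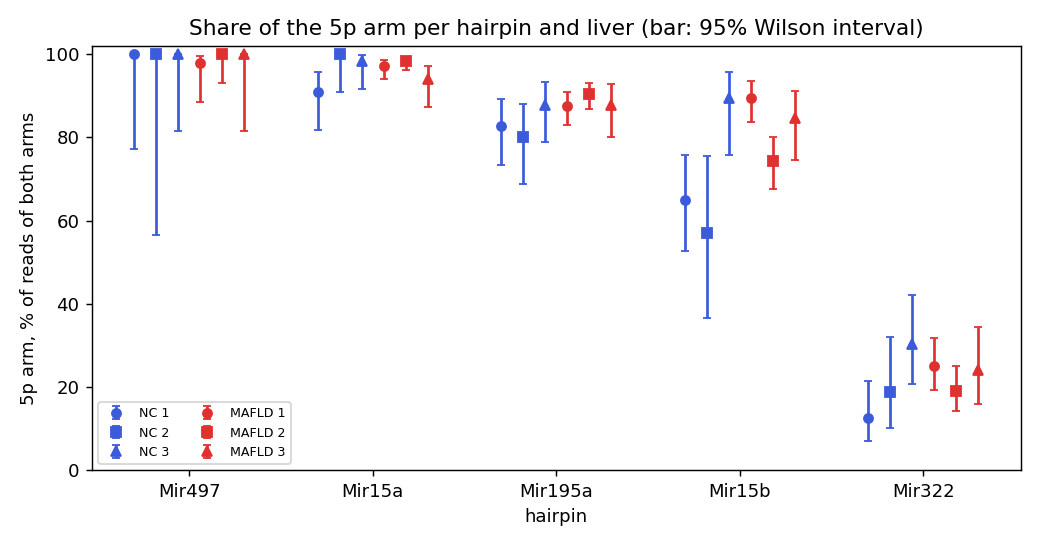
Share of the 5p arm among the reads of both arms, in percent, for 5 hairpins and 6 livers. Blue symbols are NC livers, red symbols MAFLD livers, and bars are 95% Wilson intervals, which cover counting error only. The 5p arm has the larger share in every liver for Mir497, Mir15a, Mir195a and Mir15b, although the interval of Mir15b in NC liver 2 reaches from 36.5% to 75.5%, and it has the smaller share in every liver for Mir322.

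Of the neighbours of Mir322 on chromosome X and of Mir497 on chromosome 11, 12 were listed and 6 passed the filter, all 6 from the X chromosome cluster. MiR-351-5p, which has another seed, had 8.63, 7.01 and 16.5 CPM under the normal diet and 29.6, 23.0 and 30.6 CPM under the high-fat diet. The groups did not overlap, with a log2 fold change of 1.37 by limma (standard error 0.48, unadjusted p = 0.0114, adjusted p = 0.208). MiR-450a-5p was apart between the groups as well, at 9.02 to 14.2 against 20.1 to 24.4 CPM (log2 fold change 1.02, unadjusted p = 0.0403, adjusted p = 0.249 from limma). MiR-542-3p was barely apart, at 18.0 to 29.92 against 30.01 to 45.0 CPM, with a log2 fold change of 0.60. For miR-450b-5p, with 41 reads in all, it was 0.31. Every MAFLD liver was above every NC liver for 3 of the 6 neighbours, beside 15.2% of all miRNAs. The log2 fold change was below 0 for both arms of Mir503, at −0.31 for miR-503-3p with 37 reads in all and at −0.22 for miR-503-5p with 16 reads in all (limma adjusted p = 0.80 and 0.88). Over the 6 neighbours the median was 0.46. No mature product of this cluster passed the adjusted p.

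MiRNAs known to act on the same process were counted beside the family. Of 15 miRNAs known to hold back the cell cycle (let-7 with miR-98, miR-34/449 and miR-26), 14 passed the filter, 8 had an unadjusted p under 0.05 and were higher in MAFLD livers, and 0 were lower, beside 13.4% higher and 4.59% lower among all miRNAs. Their median log2 fold change was 0.71, where that of all miRNAs was 0.43. Of 11 miRNAs known to promote proliferation (members of the miR-17-92 and miR-106b-25 clusters, miR-221 and miR-222), 4 were higher at that p, 0 were lower, and the median was 0.75. None of either list passed the adjusted p. The family's median of 1.03 lay above both medians, and the difference between the lists was not tested.

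MiR-16 is also abundant in red blood cells, and members of the family are expressed in vascular and connective tissue, so marker miRNAs of other cells were set beside them. The 4 erythroid miRNAs (miR-451a, miR-144-3p, miR-144-5p and miR-486a-5p) summed to 602 to 1212 CPM in NC livers and to 431 to 999.6 CPM in MAFLD livers, with a read in every library, and 3 of the 4 had a log2 fold change below 0. The part of red blood cells in the level of miR-16-5p was not tested. Both endothelial miRNAs, miR-126a-3p and miR-126a-5p, were measured in every library. In the deposited CPM their sum was 4710 to 6587 in NC livers and 7659 to 10155 in MAFLD livers, with no overlap. Taken singly, every MAFLD liver was above every NC liver for 1 of the 2. The same held for 2 of the 4 hepatocyte miRNAs and 15.2% of all miRNAs. The log2 fold changes of miR-126a-3p and miR-126a-5p were 0.69 and 1.01 (limma unadjusted p = 0.0252 and 0.0242). Of all miRNAs, 13.4% were higher at an unadjusted p under 0.05 by limma. The part of the endothelial miRNAs in the result was not tested. The 5 mesenchymal miRNAs (miR-199a, miR-214, miR-143 and miR-145a) summed to 12612 to 30033 CPM in NC livers and 19775 to 26950 CPM in MAFLD livers and overlapped, but most of this sum was miR-143-3p, with a log2 fold change of 0.049. All 5 had a log2 fold change above 0, with a median of 0.81, and it was 1.29 for miR-214-3p and 0.87 for miR-199a-3p (limma unadjusted p = 0.0290 and 0.0390). The 4 white blood cell miRNAs (miR-142a, miR-223 and miR-150) summed to 133 to 231 against 179 to 313 CPM and overlapped, and all 4 had a log2 fold change above 0, with a median of 0.65. The part of these lists in the family's difference was not tested. The neuronal sum was high in NC livers 1 and 2, which had less of the family than NC liver 3 in the deposited CPM, whereas NC liver 1 had the highest family sum of the NC livers under both other scalings. The 3 muscle miRNAs summed to 51.4 to 241 against 37.1 to 229 CPM, and the 3 pancreatic miRNAs to 0.784 to 6.73 against 2.35 to 6.52 CPM. Every listed marker was read in at least 1 liver, and all hepatocyte, endothelial, mesenchymal, erythroid and white blood cell markers were read in all 6.

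The miRNAs whose pattern over the 6 livers was most like that of miR-16-5p, by the mean absolute difference of centred log2(CPM + 1) values, were miR-92a-3p (0.080), let-7d-5p (0.11) and miR-378a-5p (0.11). The median difference from miR-16-5p over the 228 miRNAs compared was 0.40. MiR-92a-3p had 296, 286 and 537 CPM under the normal diet and 1018, 668 and 792 CPM under the high-fat diet, so that the livers stood in nearly the same order. For miR-195a-5p the nearest were miR-122-3p (0.090), let-7c-5p (0.094) and miR-101b-3p (0.10), where the median was 0.35. Among the members, miR-15a-5p and miR-16-5p differed by 0.12 and miR-15a-5p and miR-195a-5p by 0.12, while miR-195a-5p and its cluster partner miR-497a-5p differed by 0.25, with few reads of the latter. All these profiles share the depth and the miR-148a-3p share of their libraries.

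**Figure D5:**
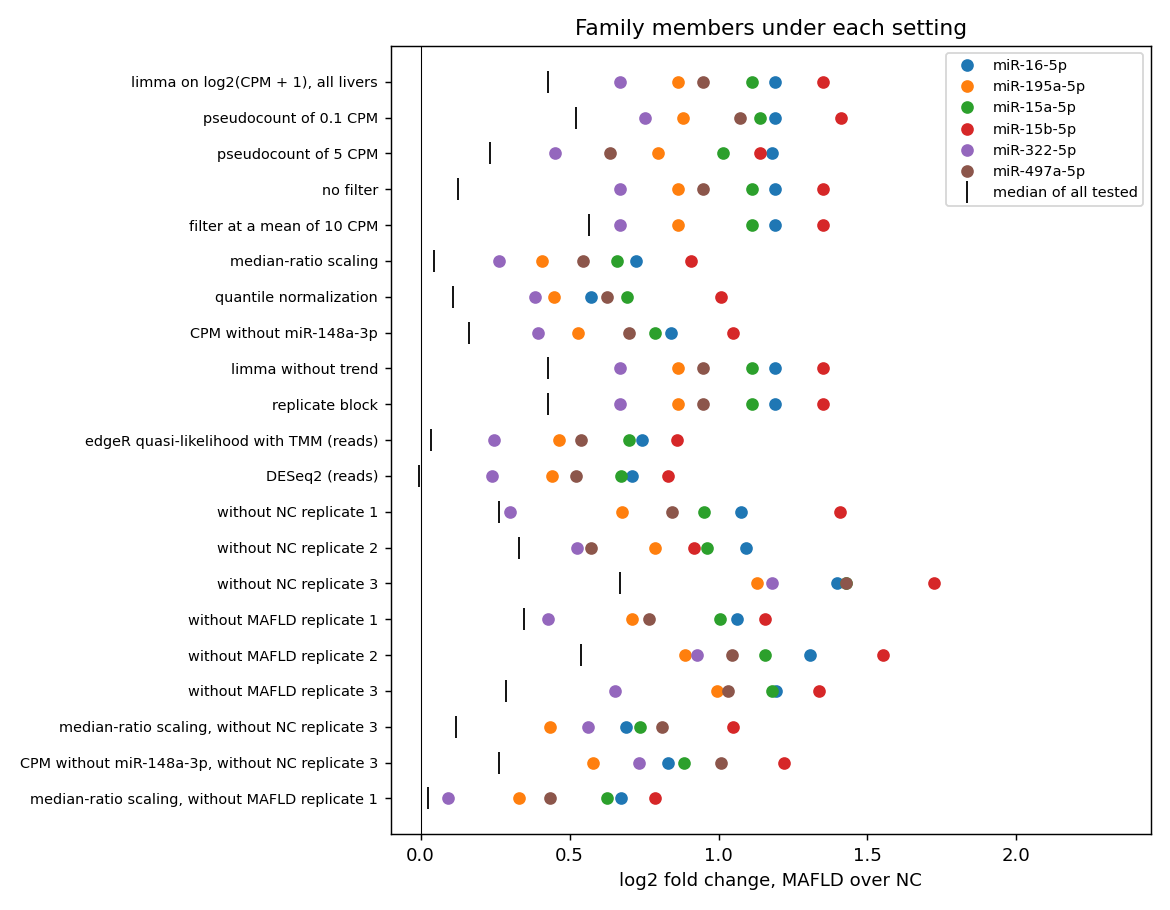
Log2 fold change (MAFLD over NC) of each member under the limma comparison of all livers and 20 alternatives. Coloured points are the members and black ticks the median of all miRNAs tested in that setting. Every point lies above 0 and to the right of the tick of its setting, and the points shift towards 0 together with the tick under median-ratio scaling, quantile normalization, edgeR and DESeq2.

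Across the 20 alternatives, all members tested had a log2 fold change above 0 and above the median of all miRNAs in the same setting. The median of the members was 0.49 to 0.90 above that of all miRNAs, and 0.60 above it in the comparison as reported. The 0.90 came without the filter, where the median of all 1546 miRNAs was 0.13. With the filter at a mean of 10 CPM, the members' median was 0.55 above that of all 238 miRNAs, 0.56. There, 4 of the 5 members tested and 21.8% of all miRNAs were higher at an unadjusted p under 0.05 by limma. MiR-16-5p had an unadjusted p under 0.05 in 20 of 20 alternatives, miR-15b-5p in 17, miR-15a-5p in 15, miR-195a-5p in 3, and miR-497a-5p and miR-322-5p each in 1. The share of all miRNAs that were higher at this p ran from 3.39% to 29.9% over the alternatives. The 29.9% came without NC liver 3, the setting in which miR-497a-5p and miR-322-5p had their single pass. These alternatives use the same 6 livers and are no independent support.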

How the data were processed

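Small RNA of 3 NC and 3 MAFLD mouse livers was sequenced after pretreatment that removes modifications blocking adapter ligation, with selection of inserts in the small RNA range. Per the labels, the authors processed the reads with FastQC, cutadapt, Bowtie and edgeR on GRCm38, with versions, mismatches and miRNA release not given in the sources used here. The authors deposited CPM values, scaled to the reads on all 1546 listed miRNAs of each library. Division by the smallest value above 0 gave whole reads for 100% of values (within 0.02). The label protocols also describe HepG2 cells, but every sample is named as liver, and the replicates are different mice.

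The 501 miRNAs whose mean reached 1 CPM were compared on log2(CPM + 1) with limma 3.58.1 in R 4.3.3 (lmFit, eBayes with trend, two-sided, Benjamini-Hochberg over all 501). Exact permutation tests and Wilson intervals used scipy 1.17.1. Alternatives were pseudocounts of 0.1 and 5 CPM, no filter or 10 CPM, quantile normalization, median-ratio scaling, leaving miR-148a-3p out of the CPM, no trend, a block for the replicate number, omission of each library, and edgeR 4.0.16 and DESeq2 1.42.0 on recovered reads. On simulated data for this comparison, with 200 of 501 miRNAs changed 4-fold, as many up as down, limma called 93. Of these 92 were changed, which is 46% of those set. Smaller changes, such as those of the members, and a shift shared by most miRNAs were not simulated. Deviations of same-numbered livers correlated at −0.046 to 0.012, so the numbers do not pair them.

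Named miRNAs were the members, the other arms and cluster neighbours, miRNAs with the same seed, marker lists, and the 3 nearest profiles (mean of at least 10 CPM) to miR-16-5p and miR-195a-5p. The arm ratios were chosen after their values were seen. Members and lists were chosen with earlier results of these data known. Loci are from GENCODE M21 and sequences from RefSeq (GRCm38.p6), where all 6 members matched by name.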

Additional observations from a re-analysis of the deposited data

How the results depend on the processing

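Every member kept a log2 fold change above 0 in each of the 20 alternatives that tested it (19 for miR-497a-5p, which was not tested at a mean of 10 CPM). MiR-16-5p passed the adjusted p with DESeq2 (0.71), without NC replicate 3 and in CPM without miR-148a-3p and NC replicate 3 (0.83), and ranged over all alternatives from 0.57 to 1.40, with an adjusted p from 0.00334 to 0.592. When 1 library was left out the log2 fold changes ran from 1.06 to 1.40 for miR-16-5p, 0.95 to 1.43 for miR-15a-5p, 0.92 to 1.72 for miR-15b-5p, 0.68 to 1.13 for miR-195a-5p, 0.57 to 1.43 for miR-497a-5p and 0.30 to 1.18 for miR-322-5p, and the upper end of each range came without NC replicate 3. The log2 ratio of the mean family sums, 1.13, became 0.70 with median-ratio scaling, 0.57 with quantile normalization, 0.69 and 0.64 with median-ratio scaling without NC replicate 3 and without MAFLD replicate 1, and lay between 0.99 and 1.41 with single libraries omitted. With the replicate block, which the numbers do not support as a pairing, 5 miRNAs and 0 members passed the adjusted p, and miR-16-5p had an adjusted p of 0.201.

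Over all miRNAs, 1 passed the adjusted p of 0.05. This became 0 without the filter and without the trend (105 and 74 at an unadjusted p under 0.05), 2 under median-ratio scaling, 2 in CPM without miR-148a-3p, 32 with DESeq2, 36 with median-ratio scaling without NC replicate 3, 42 without miR-148a-3p and NC replicate 3, 0 with median-ratio scaling without MAFLD replicate 1 (46 at an unadjusted p under 0.05), and 0 to 114 when 1 library was left out. The split at an unadjusted p under 0.05, 67 higher and 23 lower, was 36 higher against 45 lower under median-ratio scaling. The 3 settings that combine a scaling with a left-out library were chosen after seeing the data, and the cause of these changes was not tested. Fewest reads were behind miR-497a-5p (5 to 51 per library) and miR-322-5p (9 to 46), and counting error is therefore widest for them. The spread between livers adds to it.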
